A study of Mus musculus with 20 samples.

Results

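Open chromatin at 42 genes of the cell cycle and DNA replication was followed by ATAC-seq, which reads where a transposase can insert into DNA, in mouse bone marrow stem and progenitor cells of 5 genotypes. A peak was given to a gene when its centre lay inside the gene, or otherwise when that gene's boundary was the nearest among 21900 mm10 protein-coding genes in RefSeq. The shortest gene was taken where several overlapped. By this rule 337 of 125343 deposited peaks belonged to 41 of the 42 genes, and 332 of the 337 passed the filter on low counts and were tested. Aurka, the mitotic kinase Aurora A, had no peak of its own because its start site lies in a peak inside the neighbouring gene Cstf1. By the authors' annotation 41 of the 337 peaks were promoter-class, 149 intergenic, 120 intronic, 13 exonic and 14 at transcription ends. Cdk6 had the most peaks, 81, ahead of Mki67 with 39, Ccnd1 with 27 and Ccnd2 with 22. A peak far from a gene was named by position alone, and no contact between peak and gene was measured.

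The cells were Lin-cKit+Sca1+ (LSK) cells, sorted from bone marrow of C57Bl/6J mice 3 to 4 months old, and each of 4 libraries per genotype came from a separate pool of 2 mice. The controls (WT) were +/+;Vav-Cre. The first isocitrate dehydrogenase mutant, Idh1 R132H, was Idh1LSL-R132H/+;Vav-Cre, the second, Idh2 R140Q, was Idh2LSL-R140Q/+;Vav-Cre, and the last, Idh2 R172K, was Idh2LSL-R172K/+;Vav-Cre, so that controls and Idh mutants share the Cre. Vav-Cre is active in blood cells and their precursors, where it removes the stop cassette in front of the mutant allele, whereas the label of the Tet2-/- mice names no Cre. In the count table the 4 columns of the R140Q mutant carry the name Idh1 140Q, and they were tied to the Idh2 R140Q libraries because no other genotype has that substitution.

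A cell commits to division when cyclin D bound to Cdk4 or Cdk6 phosphorylates the retinoblastoma (pocket) proteins, which then release E2F transcription factors. E2F factors switch on the genes for cyclin E, for origin licensing by Cdc6, Cdt1 and the Mcm helicase, and for the replication fork. Genes of the later mitotic phase, such as Plk1, Ccnb1 and Top2a, are known to be controlled through CCAAT boxes and a promoter element called CHR. Most long-lived stem cells in bone marrow are quiescent, while many of the other progenitors in the LSK gate divide.

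Counts in peaks ranged from 10502052 to 27890340 per library. The share of a library's counts that lay in promoter-class peaks was 43.33% to 44.38% for Idh2 R172K and 40.62% to 43.08% for all other libraries. Signal at Xist fell into 10 low libraries (3.87 to 4.89 CPM, which are counts scaled to a library of 1000000) and 10 high libraries (22.6 to 30.12 CPM), split evenly within each genotype. Summed signal of the 175 peaks at 7 of 7 LSK marker genes was 1035 to 1132 CPM over the 20 libraries, with strongest promoter-class peaks in WT of 24.9 CPM at Cd34, 6.55 at Hlf, 4.56 at Flt3, 2.47 at Kit and 1.19 at Ly6a. No peak was named for Cd79a, Cd8a, Ly6g, Hba-a1 or Hbb-bs, the markers of mature lineages without one.

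Promoter sequences of 32 member genes, in 36 windows, were found in the RefSeq table (GRCm38.p6), each with 250 bases before and 50 after a start site, and 34 of the 36 start sites lay inside a peak. Outside any peak were the Cdc6 start and the E2f2 start of the window chr4:136180532-136180831. Not in that table were Aurkb, Ccna2, Ccnd1, Ccnd2, Ccne2, Cdc25c, E2f4, Gmnn, Mcm4 and Rb1. The letters searched, on both strands and with overlapping matches kept, were CHR (TTTGAA or TTCGAA), E2F (TTTCGCGC or TTTGGCGC) and the CCAAT box (CCAAT). CHR letters were in 44.4% of the member windows against 19.2% of all 32851 windows, E2F letters in 25% against 0.8%, and CCAAT letters in 72.2% against 37.4%. The median window held 24 CG dinucleotides against 7 over all windows, so the members' promoters are also richer in CG. A match describes letters and not a bound site. Of the windows below, Plk1, Cdc25b and Ccnd3 are shown because their peaks rose in Idh2 R172K under both scalings compared below, Mcm6 because it has 3 E2F matches over a peak that did not pass the test, and Top2a because it has 4 CHR and 6 CCAAT matches over a peak that did not pass either. They lie at chr7:122159185-122159484 (Plk1, plus strand), chr2:131186698-131186997 (Cdc25b, plus), chr17:47504801-47505100 (Ccnd3, plus), chr1:128359656-128359955 (Mcm6, minus) and chr11:99024140-99024439 (Top2a, minus). Each is written 5′ to 3′ on the gene's strand, with matches to any of the 3 motifs in capitals.
Plk1: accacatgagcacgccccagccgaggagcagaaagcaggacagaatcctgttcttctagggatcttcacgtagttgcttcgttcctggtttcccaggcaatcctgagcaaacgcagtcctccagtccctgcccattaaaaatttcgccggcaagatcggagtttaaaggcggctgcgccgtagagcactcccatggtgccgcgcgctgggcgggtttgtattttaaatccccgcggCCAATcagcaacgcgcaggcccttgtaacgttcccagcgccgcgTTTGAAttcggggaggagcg
Cdc25b: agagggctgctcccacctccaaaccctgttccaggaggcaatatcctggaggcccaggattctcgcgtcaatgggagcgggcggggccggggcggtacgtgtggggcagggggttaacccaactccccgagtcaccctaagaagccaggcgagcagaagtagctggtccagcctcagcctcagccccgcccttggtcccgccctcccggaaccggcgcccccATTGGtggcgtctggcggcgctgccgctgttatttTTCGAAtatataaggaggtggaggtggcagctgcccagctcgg
Ccnd3: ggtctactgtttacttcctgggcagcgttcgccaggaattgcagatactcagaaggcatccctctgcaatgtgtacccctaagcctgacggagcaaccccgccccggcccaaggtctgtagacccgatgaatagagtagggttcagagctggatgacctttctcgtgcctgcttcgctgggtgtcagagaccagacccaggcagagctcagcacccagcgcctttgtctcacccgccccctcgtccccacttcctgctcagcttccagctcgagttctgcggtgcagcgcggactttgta
Mcm6: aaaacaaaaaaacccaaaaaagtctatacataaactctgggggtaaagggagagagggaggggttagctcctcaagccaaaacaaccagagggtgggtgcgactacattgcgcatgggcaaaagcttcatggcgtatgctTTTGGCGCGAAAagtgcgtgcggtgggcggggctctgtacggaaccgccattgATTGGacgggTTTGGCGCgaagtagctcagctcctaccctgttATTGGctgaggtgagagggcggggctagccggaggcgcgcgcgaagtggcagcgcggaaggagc
Top2a: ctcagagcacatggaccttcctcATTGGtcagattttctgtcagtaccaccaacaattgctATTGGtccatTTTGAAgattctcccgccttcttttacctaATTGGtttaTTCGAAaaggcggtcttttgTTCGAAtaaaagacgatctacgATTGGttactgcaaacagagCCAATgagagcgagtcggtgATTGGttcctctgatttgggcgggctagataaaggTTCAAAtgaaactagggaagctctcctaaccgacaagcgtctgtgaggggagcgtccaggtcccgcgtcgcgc

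Idh2 R172K against WT asks what this mutant allele does to chromatin at the cell cycle genes. Of the 332 tested member peaks 76 rose and 73 fell, at 31 and 14 genes, and the changes divided by the kind of peak. Promoter-class peaks rose by small amounts in 19 of 41 cases and fell in 1, while outside promoters 57 of 291 peaks rose and 72 fell, several of them to a small part of the WT signal. Peaks were called at an adjusted p under 0.05 in edgeR's quasi-likelihood test, with Benjamini-Hochberg adjustment over all 123908 tested peaks. Over all peaks the same test called 25.1% raised and 27.9% lowered, and over all promoter-class peaks 39.8% raised and 15% lowered. Over all other peaks it called 23% raised and 29.8% lowered. The members' shares were 22.9% raised and 22% lowered in all, 46.3% and 2.44% at promoters and 19.6% and 24.7% outside them, to be read against those background shares. No test was made of the members against the other peaks. Their median log2 fold change was 0.07 against 0.01 for all peaks, and at promoters it was 0.15 against 0.14 for all promoter-class peaks.

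Falls were deeper than rises. Beyond 2-fold, 28 member peaks fell and 4 rose, and the median size of change outside promoters was 0.88 on the log2 scale for lowered and 0.48 for raised peaks. Over all peaks 47.4% of the lowered and 14.5% of the raised calls went beyond 2-fold, and the medians outside promoters were 0.97 and 0.57. At promoters the raised peaks changed by a median of 0.25 (0.15 to 0.50). The 4 WT and 4 Idh2 R172K libraries did not overlap at 58 of the 76 raised and 59 of the 73 lowered peaks (76.3% and 80.8%), against 75.5% and 80.6% of all raised and lowered peaks. Lowered peaks outside promoters lay a median of 23.1 kb from the start site that the authors' annotation gives, against 11.9 kb for raised ones. Member peaks there that were not called lay at 19.4 kb, and over all peaks outside promoters the medians were 19 kb for lowered and 15.7 kb for raised. In bulk libraries, fewer cells with an open site and less signal per cell cannot be told apart. Beside these changes, summed signal at peaks of T and NK cell markers (3 of 4 genes with a peak) was 95.2 to 103 CPM in Idh2 R172K against 74.1 to 85.6 in WT. At stroma and endothelium markers (4 of 4 genes) it was 304 to 323 against 268 to 293, at neutrophil and monocyte markers (3 of 4) 106 to 118 against 124 to 140, and at B cell markers (3 of 4) 21.5 to 25.4 against 26.8 to 30.8. Erythroid markers (2 of 4) gave 90.8 to 97 against 91.5 to 96.3. Markers of the sorted cells moved as well, although their summed signal was 1074 to 1132 CPM in Idh2 R172K and 1046 to 1102 in WT. The strongest promoter-class peak named for Flt3, a receptor of multipotent progenitors, read 4.56 ± 0.182 CPM in WT and 1.04 ± 0.374 in Idh2 R172K, a log2 fold change of -2.01 ± 0.27 with an adjusted p of 1.4e-06. That named for Kit, a receptor of the sort itself, lies within the gene and fell from 2.47 ± 0.619 to 1.39 ± 0.102 CPM (-0.80 ± 0.20, adjusted p 0.000828), and that of Cd34 rose from 24.9 ± 0.751 to 30.5 ± 2.06 CPM (0.29 ± 0.07, adjusted p 0.000586). The groups were apart at these 3 peaks, whereas those of Hlf (-0.12) and Ly6a (-0.10) did not pass the test. The part of these marker differences in the members' changes was not tested. Scaling by library size alone gave 52 raised and 81 lowered member peaks in place of 76 and 73, and over all peaks it called 18.8% raised and 31.1% lowered. Within the libraries low at Xist the members' counts were 65 raised and 52 lowered, against 19.3% and 22.8% of all peaks. Within those high at Xist they were 47 and 52, against 15.9% and 18.9%.

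**Figure D1:**
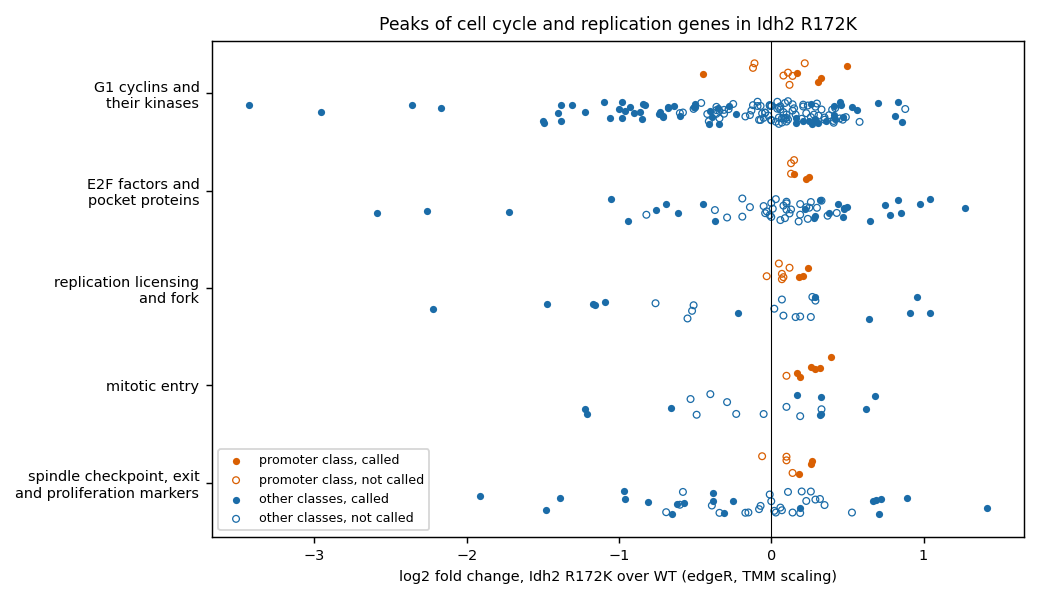
Log2 fold change of Idh2 R172K over WT (x axis) for each of the 332 tested member peaks, in 5 rows by role of the gene, with promoter-class peaks in orange above and other peaks in blue below; filled points were called. Promoter-class peaks sit between -0.45 and 0.50, while the other peaks reach down to -3.43.

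Among the G1 cyclins and their kinases, which drive a cell toward the start of replication, 25 of 156 tested peaks rose and 41 fell. These are 16% and 26.3%, against 25.1% and 27.9% of all peaks. Ccnd1, which encodes cyclin D1, had 14 of its 27 peaks lowered and none raised. The deepest fall was at an intergenic peak 111134 bp from the gene (chr7:145050711-145051220, mm10), which read 8, 7.98, 6.7 and 6.89 CPM in WT and 0.885, 1.75, 0.702 and 0.901 CPM in Idh2 R172K. Every mutant library was far below every control, with a log2 fold change of -2.96 ± 0.16 (SE) and an adjusted p of 5.45e-19. Tet2 knockout libraries read 6.03 ± 0.356 CPM there (SD, n = 4), all 4 below WT, but the log2 fold change of -0.30 ± 0.11 was not called (adjusted p 0.152). A second Ccnd1 peak, 89612 bp away, read 10.8 ± 1.06 CPM in WT and 6.06 ± 0.903 in Idh2 R172K (log2 fold change -0.86 ± 0.11). The Ccnd1 promoter-class peak (chr7:144939554-144940076) was the one member promoter that fell, from 13.2, 15.5, 13.5 and 12.9 CPM in WT to 10, 11.8, 9.2 and 10 CPM in Idh2 R172K. The groups did not overlap, and the log2 fold change was -0.45 ± 0.09 with an adjusted p of 7.73e-05.

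Ccnd3, which encodes the cyclin D3 used widely in blood cells, showed both directions within 1 gene. An intronic peak (chr17:47531232-47532008) read 13.7, 14.2, 13.5 and 10.1 CPM in WT and 2.46, 3.9, 2.74 and 2.87 CPM in Idh2 R172K, with no overlap. Its log2 fold change was -2.17 ± 0.14, with an adjusted p of 8.75e-16. Toward the end of the same gene, a transcription end peak (chr17:47598120-47598566) moved the other way, from 12.7, 15, 12.5 and 14.9 CPM to 24.2, 21, 26 and 26.3 CPM. All 4 mutant libraries lay above all 4 controls, with a log2 fold change of 0.83 ± 0.08 and an adjusted p of 5.11e-11. The strongest promoter-class rise of all members was also in Ccnd3 (chr17:47595345-47596060), at 41.6, 40.1, 36.9 and 43.1 CPM in WT and 55.9, 53.9, 57.7 and 60.9 CPM in Idh2 R172K. Those groups too were apart, and the log2 fold change was 0.50 ± 0.06 with an adjusted p of 5.76e-09. The authors' annotation puts this peak in the promoter class although the distance it lists to a start site is 15790 bp. The peak over the Ccnd3 start shown above rose as well, from 11.2 ± 0.577 to 14 ± 1.35 CPM (SD, n = 4; log2 fold change 0.33 ± 0.08). Over the other RefSeq start of Ccnd3 the peak read 42.7 ± 3.43 CPM in WT and 45.2 ± 1.67 in Idh2 R172K, with an adjusted p of 0.297.

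Ccnd2, for cyclin D2, had 3 of 22 peaks raised and 7 lowered. Its main promoter-class peak (chr6:127150846-127152888) rose from 86.4 ± 2.68 to 107 ± 4.04 CPM, and an intron-class peak 2725 bp from the gene rose from 16.7 ± 0.549 to 22.9 ± 1.07 CPM. A peak 25883 bp from the gene fell from 8.45 ± 1.4 to 3.15 ± 0.594 CPM, and all 3 pairs of groups were apart. Cdk6, the kinase partner of the D cyclins, had 16 of 78 tested peaks raised and 14 lowered, 10 of the lowered ones inside the gene. Its largest fall, 147239 bp from the gene (chr5:3193623-3193907), was from 5.12, 3.07, 4.4 and 4.06 CPM in WT to 0.423, 0.292, 0.37 and 0.394 CPM in Idh2 R172K. This was the largest decrease of any tested member peak, at a log2 fold change of -3.43 ± 0.24 and an adjusted p of 1.62e-15, with no overlap. A peak 142353 bp from the gene (chr5:3198135-3199167) rose from 44.9 ± 1.13 to 55.7 ± 1.48 CPM (log2 fold change 0.31 ± 0.06). Of the cyclin E genes, which act at the start of replication, Ccne1 lost signal at a peak 7622 bp away (8.56 ± 0.739 to 4.5 ± 0.811 CPM), and the promoter-class peaks of Ccne1, Ccne2 and Cdk4 did not pass the test, at log2 fold changes of 0.14, 0.11 and 0.12. Cdk2, the partner of cyclin E, has its start under an exonic peak that rose from 39.7 ± 2.09 to 47.7 ± 1.19 CPM.

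**Figure D2:**
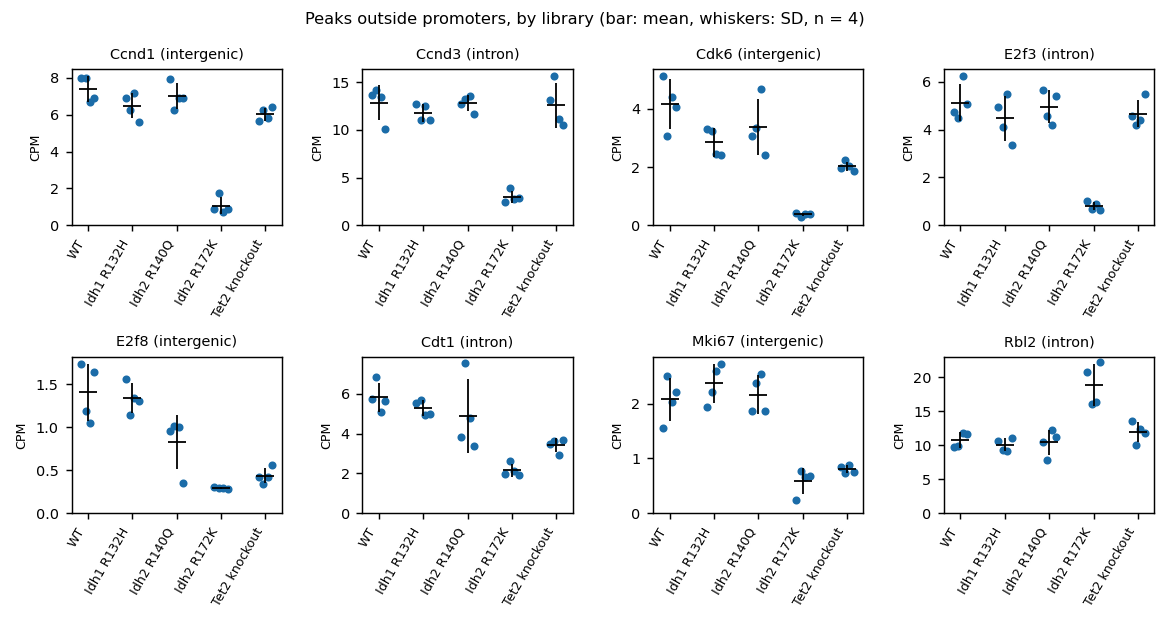
CPM in every library (points) for 8 peaks outside promoters, by genotype, with the mean (bar) and SD (whiskers, n = 4); each panel starts at 0 and has its own scale. In the panels for Ccnd1, Ccnd3 and E2f3 the Idh2 R172K libraries lie below all others and Tet2 knockout was not called, in those for Cdk6, E2f8, Cdt1 and Mki67 the Tet2 knockout libraries were called lowered as well, and at Rbl2 the Idh2 R172K libraries rise.

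E2F factors and pocket proteins, the switch that the cyclin D kinases act on, had 21 of 67 peaks raised and 10 lowered. These are 31.3% and 14.9%, against 25.1% and 27.9% of all peaks. E2f2, an activating E2F, had 5 of 9 peaks raised and none lowered. Its strongest, an intronic peak (chr4:136177247-136178570), read 67.4, 62, 57.1 and 62.2 CPM in WT and 80.5, 80.2, 81.1 and 82.8 CPM in Idh2 R172K. All mutant libraries were above the controls, and the log2 fold change was 0.38 ± 0.06 with an adjusted p of 1.2e-06. E2f3, another activator, had 3 of 13 peaks raised and 5 lowered. An intronic peak (chr13:29970189-29970866) fell from 4.74, 4.5, 6.24 and 5.05 CPM to 1, 0.682, 0.887 and 0.619 CPM, while an intronic peak in the same gene (chr13:29963928-29964685) rose from 6.98 ± 0.399 to 9.93 ± 0.477 CPM. Both pairs of groups were apart, with log2 fold changes of -2.59 ± 0.19 (adjusted p 3.77e-15) and 0.50 ± 0.09 (adjusted p 1.72e-05).

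E2f8, an atypical E2F that represses the same targets, had 2 of 10 peaks raised and 2 lowered. A peak 6914 bp from it (chr7:48859185-48859846) rose from 5.69, 4.99, 4.99 and 5.5 CPM to 10.9, 9.74, 9.72 and 7.66 CPM, without overlap. The log2 fold change was 0.85 ± 0.11, with an adjusted p of 5.34e-08. None of the 10 peaks of its close relative E2f7 was called, where the lowest adjusted p was 0.0699 and 1 peak had an unadjusted p under 0.05. Rbl2, the pocket protein p130 of resting cells, had 3 of 4 peaks raised and none lowered, and its largest rise was in an intron (chr8:91077242-91077978), from 9.71, 9.82, 11.8 and 11.7 CPM to 20.8, 16, 16.4 and 22.2 CPM. Mutant libraries lay above all controls, with a log2 fold change of 0.83 ± 0.11 and an adjusted p of 5.49e-07. The exonic peak over the Rbl2 start did not pass, at 39.8 ± 1.09 CPM in WT and 42.2 ± 2.05 in Idh2 R172K. Rb1, the retinoblastoma gene itself, had 5 of 14 peaks raised and 3 lowered, with a fall from 14.1 ± 0.57 to 9.32 ± 1.16 CPM at an intronic peak (chr14:73222351-73223121, log2 fold change -0.61 ± 0.11). The promoter-class peak of E2f1, the founding activator, rose from 82.3 ± 3.17 to 96.8 ± 6.92 CPM (log2 fold change 0.23 ± 0.06). The peak over the E2f4 start stood at 17.7 ± 1.39 and 17.5 ± 1.5 CPM.

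Licensing and fork genes changed in 14 of 32 peaks, 8 raised and 6 lowered (25% and 18.8%, against 25.1% and 27.9% of all peaks). The promoter-class peaks of the Mcm genes, subunits of the replicative helicase, moved little. Mcm2, Mcm3, Mcm5 and Mcm6 had log2 fold changes of 0.07, 0.08, 0.07 and -0.03, none of which passed the test, and Mcm7 rose by 0.21 ± 0.06 (adjusted p 0.00162), from 98.1 ± 4.3 to 114 ± 3.21 CPM. The only peak named for Mcm4 was a weak exonic one at 0.291 ± 0.0349 CPM in WT and 0.559 ± 0.146 in Idh2 R172K. Pcna, the sliding clamp of the fork, and Gmnn, the inhibitor of licensing, had promoter-class peaks that did not pass, at 0.12 ± 0.07 and 0.05 ± 0.06. Cdc6, which loads the helicase, rose at its promoter-class peak from 43.1, 43, 41.7 and 43.9 CPM to 48, 50.8, 50.7 and 53.6 CPM. The groups were apart, with a log2 fold change of 0.24 ± 0.06 and an adjusted p of 0.000686. The RefSeq start of Cdc6 lies outside this peak.

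Mcm5 was the licensing gene with the most lowered peaks, 5 of 9 with none raised, all outside its promoter and up to 26.7 kb from the gene. The deepest of them (chr8:75154965-75155245) was weak, at 1.4 ± 0.154 CPM in WT and 0.303 ± 0.0848 in Idh2 R172K (log2 fold change -2.22 ± 0.30). Cdt1, the licensing factor that Cdc6 works with, fell at a peak 3314 bp from the gene (chr8:122564474-122564928), from 5.73, 6.83, 5.06 and 5.66 CPM to 1.96, 2.63, 2.14 and 1.91 CPM. The groups did not overlap, and the log2 fold change was -1.47 ± 0.17 with an adjusted p of 9.41e-09. The Cdt1 promoter-class peak rose over the same libraries from 52.7 ± 3.72 to 59.7 ± 3.3 CPM (log2 fold change 0.18 ± 0.06), with overlap between the groups. A weak peak 17219 bp from Gmnn rose from 1.39 ± 0.142 to 2.66 ± 0.327 CPM (log2 fold change 0.96 ± 0.18).

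The genes of mitotic entry had 12 of 25 peaks raised and 3 lowered, against 25.1% and 27.9% of all peaks. Of their 7 promoter-class peaks 6 rose, where 39.8% of all promoter-class peaks did. The largest of these was at Plk1, the polo-like kinase that starts mitosis (chr7:122158710-122160035), with 23.4, 25.3, 21.8 and 22.9 CPM in WT and 30.2, 30.5, 32.9 and 29.1 CPM in Idh2 R172K. Every mutant library was higher than every control, and the log2 fold change was 0.39 ± 0.06 with an adjusted p of 1.61e-06. Cdc25b, a phosphatase that activates Cdk1, had a promoter-class peak (chr2:131186406-131187515) at 30.2, 31.7, 30.6 and 29.6 CPM in WT and 38.2, 37.4, 37.4 and 39.3 CPM in Idh2 R172K. Those groups were also apart, at 0.32 ± 0.06 and an adjusted p of 3e-05. Smaller rises were found at the promoter-class peaks of Ccna2 (0.29 ± 0.09), Cdc25c (0.26 ± 0.08), Ccnb1 (0.19 ± 0.06) and Cdc25a (0.17 ± 0.07), which encode cyclins A2 and B1 and further Cdc25 phosphatases. Each of these smaller rises lost its call under the cyclic loess scaling compared below, and that at Cdc25a did so in 7 of 17 alternative settings. Ccnb2, for cyclin B2, did not pass, at 0.10 ± 0.07. Cdk1 has its start under an intronic peak that rose from 39.1 ± 2.67 to 44 ± 1.05 CPM (adjusted p 0.022). The Cstf1 peak that holds the Aurka start read 47 ± 2 CPM in WT and 49.5 ± 1.62 in Idh2 R172K, with an adjusted p of 0.277. Outside promoters, Cdc25a fell at a peak 14438 bp away (chr9:109907975-109908692), from 4.14 ± 0.561 to 1.81 ± 0.178 CPM (log2 fold change -1.21 ± 0.14).

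Among spindle checkpoint, exit and proliferation genes 10 of 52 peaks rose and 13 fell (19.2% and 25%, against 25.1% and 27.9% of all peaks). Promoter-class peaks rose at Cdc20, the activator of the anaphase-promoting complex (46.8 ± 2.65 to 56.5 ± 2.6 CPM), at Aurkb, the kinase of the chromosomal passenger complex (23.3 ± 1.71 to 27.8 ± 1.68 CPM), and at Mki67, the Ki-67 proliferation antigen (49.5 ± 1.55 to 56.1 ± 3.23 CPM). Their log2 fold changes were 0.27, 0.26 and 0.18, and the groups of each were apart. The checkpoint kinases Bub1 and Bub1b and the topoisomerase Top2a had main promoter-class peaks that did not pass, at 0.14, 0.10 and 0.10. A peak 2442 bp from Aurkb (chr11:69053938-69054275) went against its promoter, from 4.63, 4.3, 5.72 and 4.64 CPM in WT to 1.77, 1.75, 1.52 and 2.31 CPM in Idh2 R172K. No library overlapped, and the log2 fold change was -1.39 ± 0.15 with an adjusted p of 1.42e-10. Mki67 had 11 of 38 tested peaks lowered and 6 raised, and the lowered ones lay 5.42 to 383 kb from the gene. Ccnd1, Ccne1, E2f8, Mki67 and Plk1 lie on chromosome 7, as does Idh2 itself. Their peaks rose in 11.6% and fell in 32.6% of 86 tests, against 26.8% and 18.3% of 246 on other chromosomes. Over all peaks the shares were 27.3% and 26.5% on chromosome 7 and 24.9% and 28% elsewhere, and no test was made of this difference.

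**Figure D3:**
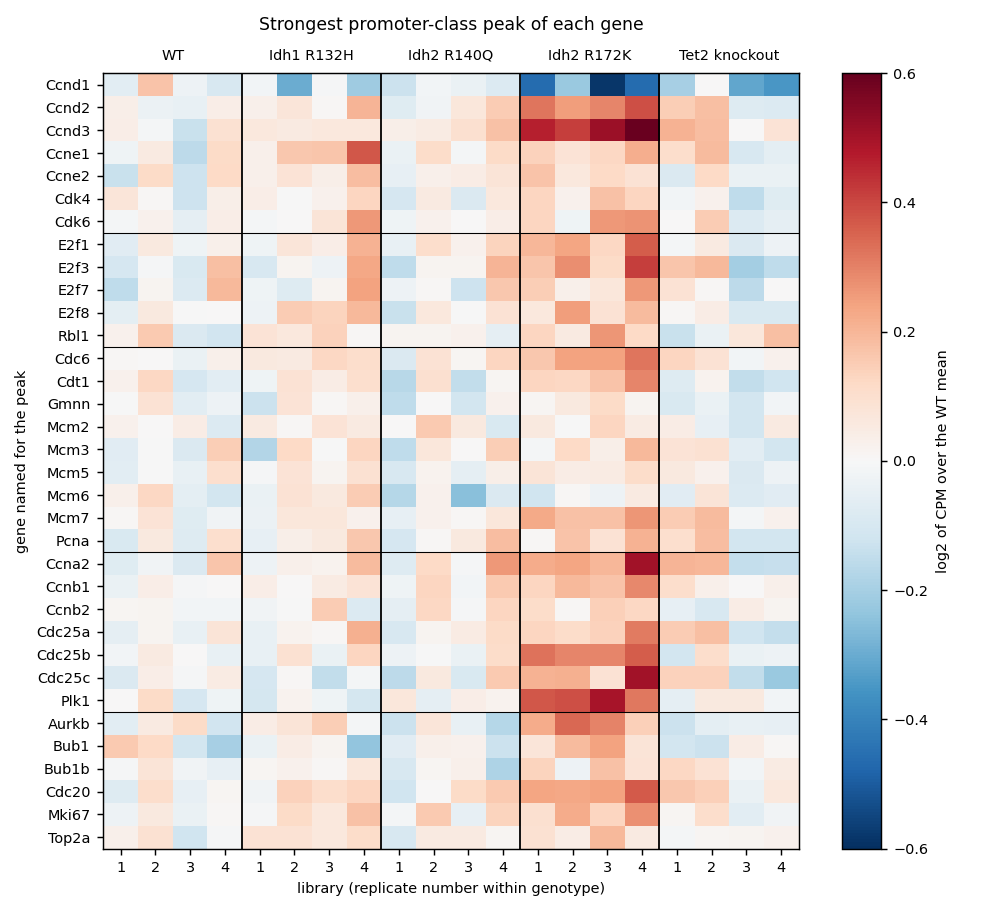
Log2 of CPM over the WT mean (colour) for the strongest promoter-class peak of each of 34 genes (rows, in 5 blocks by role) in the 20 libraries (columns, by genotype and replicate number). The Idh2 R172K columns are red for most genes, with replicate 4 the highest of its group at 21 of the 34 peaks, and blue for Ccnd1.

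The rises at promoters were small, and how many were called depended on the libraries included and on the scaling. In the heat map of promoter-class peaks, Idh2 R172K replicate 4 was the highest library of its genotype at 21 of the 34 strongest peaks, and it also had the largest share of its counts in promoters, 44.38%. Without it 12 of the 41 promoter-class peaks rose in place of 19, where 33.8% of all promoter-class peaks rose. Scaling by library size alone also left 12, where 27% of all promoter-class peaks rose. Without that library the promoter-class calls at Cdc25a, Cdc25c, Cdk6, Cdt1, E2f3, E2f8 and Mki67 were lost. Those at Cdc25a, Cdk6, Cdt1, E2f3 and E2f8 were each lost without WT replicate 3 as well, and without 1 or more of WT replicates 1, 2 and 4. Cyclic loess scaling, which takes out trends with peak strength, left 6 raised and 3 lowered, where 23.7% of all promoter-class peaks rose and 18.8% fell. The 6 were Plk1 (0.29), Cdc25b (0.20), Ccnd2 (0.11), Aurkb (0.16) and both called peaks of Ccnd3 (0.35 and 0.29). The 3 lowered were Ccnd1 (-0.49), Mcm6 (-0.19) and Pcna (-0.10). Outside promoters the leading falls at Ccnd1, Ccnd3, Cdk6 and E2f3 had log2 fold changes of -2.91, -2.18, -3.31 and -2.52 under it, and each was called in all 17 alternative settings. The rise over the Ccnd3 start was lost within the libraries high at Xist.

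**Figure D4:**
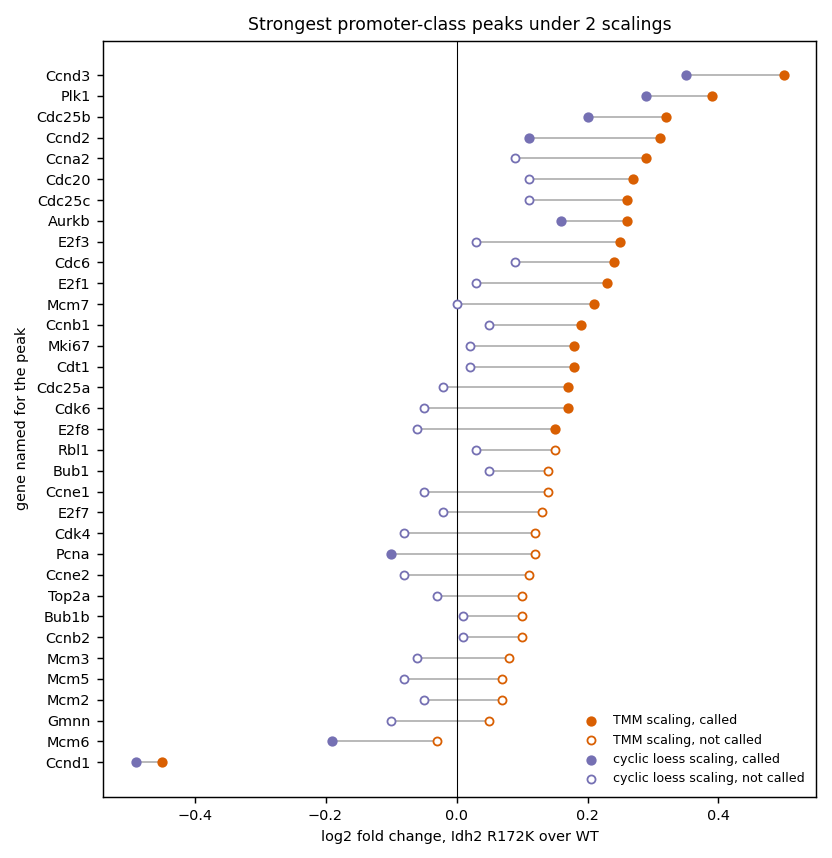
Log2 fold change of Idh2 R172K over WT for the strongest promoter-class peak of 34 genes under TMM scaling (orange) and cyclic loess scaling (purple), joined by a line; filled points were called. Loess values lie to the left of TMM values in all rows, and the calls at Ccnd3, Plk1, Cdc25b, Ccnd2 and Aurkb hold under both.

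Tet2 knockout against WT asks what loss of the methylcytosine oxidase Tet2 does at the same peaks. Only 9 of 332 member peaks were called, 2 raised and 7 lowered, against 0.785% and 2.32% of all peaks. Of the 41 promoter-class peaks 0 were called, where 0.816% of all promoter-class peaks rose and 1.07% fell, and DESeq2 also called 0. In edgeR's test 1 of the 41 had an unadjusted p under 0.05, and so did 1632 of all 15572 promoter-class peaks. The 7 lowered peaks lay near Cdk6, E2f8 (2 peaks), Mki67 (2), Cdt1 and Cdc25a, and the 2 raised ones near Bub1b and Mki67. At the distal Cdk6 peak described above, Tet2 knockout libraries read 1.96, 2.24, 2.05 and 1.88 CPM, all below WT. The log2 fold change was -1.04 ± 0.17 and the adjusted p 0.000105.

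The largest fall in Tet2 knockout was 16647 bp from E2f8 (chr7:48898540-48898901), where WT read 1.74, 1.19, 1.05 and 1.64 CPM, Tet2 knockout 0.42, 0.341, 0.425 and 0.563 CPM, and Idh2 R172K 0.308, 0.292, 0.296 and 0.282 CPM. Both mutants were below every control, with log2 fold changes of -1.68 ± 0.26 (adjusted p 6.1e-05) and -2.26 ± 0.30 (adjusted p 3.34e-08). A peak 5415 bp from Mki67 (chr7:135721593-135722137) read 1.56, 2.5, 2.04 and 2.22 CPM in WT, 0.84, 0.731, 0.888 and 0.751 CPM in Tet2 knockout and 0.231, 0.779, 0.665 and 0.676 CPM in Idh2 R172K. Here too neither mutant overlapped WT, at -1.36 ± 0.22 (adjusted p 8.86e-05) and -1.91 ± 0.25 (adjusted p 1.77e-08). The peak near Cdt1 stood at 3.5, 3.65, 2.94 and 3.68 CPM in Tet2 knockout, below the WT libraries given above, with a log2 fold change of -0.77 ± 0.15 and an adjusted p of 0.00254. The second Mki67 peak (chr7:135794139-135794583) fell by 0.84 and 0.81 on the log2 scale in Tet2 knockout and Idh2 R172K, and the second E2f8 peak (chr7:48864540-48865605) by 0.44 and 0.94. The Cdc25a peak (chr9:109902532-109903215) fell by 0.70 and 1.22. At the 2 raised peaks, Bub1b (chr2:118642466-118643317) and Mki67 (chr7:135889098-135889793), the Tet2 knockout changes were 0.43 ± 0.11 and 0.49 ± 0.14 (adjusted p 0.016 and 0.042).

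All 7 peaks lowered in Tet2 knockout were also lowered in Idh2 R172K, but the 2 comparisons share the WT libraries, so the overlap is given only as a count. Over all peaks, the share of the 2871 lowered in Tet2 knockout that also fell in Idh2 R172K was not counted. The overlap is therefore not read as a trait of the members. In the direct comparison of the 2 mutants, 3 of the 7 were lower in Idh2 R172K, near Cdk6 (-2.39, adjusted p 1.22e-09), Cdt1 (-0.70, adjusted p 0.00234) and E2f8 (-0.51, adjusted p 0.00247 at the peak 1357 bp from the gene). The difference at Cdt1 was lost within the libraries high at Xist and that at E2f8 within those low at Xist. The other 4 did not pass, and neither did the difference at the 2 raised peaks. Within the libraries low at Xist 12 member peaks were called in Tet2 knockout, 6 raised and 6 lowered, and within those high at Xist 4 were, all lowered. The 6 raised were all promoter-class, and in the same libraries 7.57% of all promoter-class peaks rose. Over all peaks 1.83% rose and 1.09% fell within the low set, and 0.38% and 1.83% within the high set. Leaving out WT replicate 2 or Tet2 knockout replicate 1 left 5 calls in place of 9. The shares of all peaks fell as well, from 0.785% raised and 2.32% lowered. They were 0.349% and 1.49% without that WT library, and 0.451% and 1.55% without that Tet2 knockout library. The falls near Cdk6, E2f8 (chr7:48898540-48898901) and Mki67 (chr7:135721593-135722137) were called in all 17 alternative settings. The call near Cdt1 and that at the second Mki67 peak were lost only within the libraries high at Xist. Each of the other 4 calls was lost in 6 to 10 settings, all 4 of them without WT replicate 2 and without Tet2 knockout replicate 1.

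Idh1 R132H and Idh2 R140Q against WT gave 0 called member peaks each in edgeR's test, and DESeq2 also called 0. Over all peaks 0.0274% were called for Idh1 R132H and 0.0153% for Idh2 R140Q. At an unadjusted p under 0.05 there were 11 and 9 of 332 member peaks, with lowest adjusted p of 0.486 and 0.719. Of all 123908 tested peaks 6282 and 6810 were under that threshold. At the distal Cdk6 peak Idh1 R132H stood at 2.85 ± 0.491 CPM and Idh2 R140Q at 3.38 ± 0.955, against 4.16 ± 0.853 in WT (SD, n = 4). At the Ccnd1 peak 111134 bp from the gene they stood at 6.48 ± 0.689 and 6.99 ± 0.701 CPM, and at the intronic Ccnd3 peak at 11.8 ± 0.932 and 12.8 ± 0.821 CPM. The Plk1 promoter-class peak read 22.5 ± 1.01 and 23.6 ± 0.853 CPM.

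Set directly against each other, Idh2 R172K was higher than Idh2 R140Q at 68 member peaks and lower at 65, against 21.5% and 25.5% of all peaks. It was higher than Tet2 knockout at 73 and lower at 58, against 20.1% and 24.1% of all peaks. With library size scaling these became 44 higher and 73 lower than Idh2 R140Q, and 44 higher and 69 lower than Tet2 knockout. Over all peaks the shares under that scaling were 16.5% and 28.1% against Idh2 R140Q, and 14.7% and 27.6% against Tet2 knockout. Of the 149 member peaks called in Idh2 R172K against WT, 112 (75.2%) differed from Idh2 R140Q in the same direction (54 raised, 58 lowered) and 106 (71.1%) from Tet2 knockout (58 raised, 48 lowered). Of all peaks called in Idh2 R172K against WT, 80.1% and 73% did so. Examples against Tet2 knockout are the Ccnd1 peak 111134 bp from the gene (-2.66, adjusted p 4.67e-17), the intronic Ccnd3 peak (-2.13, adjusted p 2.11e-15), the intronic E2f3 peak (-2.48, adjusted p 2.52e-14) and the Plk1 promoter-class peak (0.39, adjusted p 2.76e-06).

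A further list of 78 cell cycle genes that holds none of the members, among them origin recognition, polymerase, kinetochore and DREAM complex genes, had 317 tested peaks at 75 genes. In Idh2 R172K 106 of these rose and 65 fell, with 37 of 70 promoter-class peaks raised and 4 lowered and a median promoter change of 0.17. These are 33.4% and 20.5% of its peaks, and 52.9% and 5.71% at promoters, to be read beside 25.1% and 27.9% of all peaks and 39.8% and 15% of all promoter-class peaks. In Tet2 knockout 2 rose and 7 fell (0.631% and 2.21%, beside 0.785% and 2.32% of all peaks). In Idh1 R132H and Idh2 R140Q edgeR and its threshold called 0. At an unadjusted p under 0.05 there were 13 and 12 of the 317, beside 6282 and 6810 of all 123908 tested peaks. The largest rises in Idh2 R172K were at a pair of intergenic peaks near Nuf2, a kinetochore gene, from 0.563 ± 0.232 to 9.29 ± 1 CPM (chr1:169024335-169025174, log2 fold change 4.06 ± 0.22) and from 0.106 ± 0.0434 to 2.52 ± 0.284 CPM. An intronic peak of Lin54, the CHR-binding subunit of the DREAM complex, fell from 4.34 ± 0.303 to 0.765 ± 0.232 CPM (chr5:100477512-100478131, log2 fold change -2.61 ± 0.19, adjusted p 4.58e-15). The same Lin54 peak was also lowered in Tet2 knockout, at 2.9 ± 0.417 CPM (-0.60 ± 0.14, adjusted p 0.00945). Peaks near Pttg1 (securin) and Mad2l1 (the checkpoint protein Mad2) fell in Idh2 R172K by 1.88 and 1.06 on the log2 scale, and an intronic peak of Rpa1, a single-strand DNA binding protein, rose by 0.96. In Tet2 knockout the promoter-class peak of Pole, the leading-strand polymerase, rose by 0.56 (adjusted p 0.0199), and peaks near Rpa1 (0.35, adjusted p 0.0427) and Rrm2, a ribonucleotide reductase subunit (-1.24, adjusted p 0.0117), were also called.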

How the data were processed

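ATAC-seq libraries (4 in each of 5 genotypes, 20 in all) were analysed from the whole-number counts per peak that the authors deposited in 1 table, with the authors' peak annotation, whose classes and distances to a start site were used as deposited. In that annotation the header runs its first 2 names together, so that values sit 1 column to the right of their names, and the distance was therefore read by position. The submitters' processing notes name MACS2 and featureCounts, the aligner BWA with Trim Galore, SAMtools and Picard, and the build mm10. Not given in the sources used here are their order, versions and settings, any shift of reads for the transposase, and whether peaks were called on pooled libraries. Regions outside the deposited peak list were not analysed here.

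Peaks were matched to 21900 RefSeq protein-coding genes (GRCm38.p6). The members, the other lists, the tests and the rule for named peaks were chosen with earlier results of these data known. Counts were filtered with filterByExpr (1435 peaks removed), scaled by TMM (factors 0.945 to 1.049) and fitted for all 123908 peaks and 20 libraries in edgeR 4.0.16 (R 4.3.3) with 1 mean per genotype, robust quasi-likelihood tests and Benjamini-Hochberg adjustment per comparison. The common biological coefficient of variation was 7.73%. CPM used the same scaling, and standard errors were derived from the quasi-likelihood F value, so they are approximate. The alternatives were RLE, library size and cyclic loess scaling (limma 3.58.1), no filter, DESeq2 1.42.0, the 2 compared genotypes alone, a replicate block, leaving out each library, and libraries low or high at Xist alone. The fitting steps were tested on simulated data.

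Named peaks were the strongest promoter-class peak of each gene, the first 10 raised and lowered promoter-class and other peaks by p in Idh2 R172K, every called peak in the other comparisons with WT, and 3 per direction of the pathway list. Peaks of Cdk1, Cdk2, Mcm4, Mcm5, Rb1, E2f4 and the start of Rbl2, the peak over the other Ccnd3 start and the Cstf1 peak lie outside that rule and were added after their values were seen. Libraries with the same number deviated together between WT and Idh1 R132H (correlations 0.127 to 0.299 over peaks). So did those of WT and Idh2 R140Q (0.15 to 0.333). Those numbers were taken to pair the libraries, although the main fit holds no replicate block. WT replicate 3 correlated better with replicate 1 of each mutant (0.159 and 0.178) than with replicate 3 (0.127 and 0.164). In WT and these mutants replicates 1 and 3 were low at Xist and 2 and 4 high, so number goes with Xist signal. With the block 0 member peaks were called there as well. Over all peaks its calls went from 8 raised and 26 lowered to 17 and 79 for Idh1 R132H. For Idh2 R140Q they went from 10 and 9 to 14 and 22.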

Additional observations from a re-analysis of the deposited data

Results flagged for a closer look

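At 15 of 310 combinations of a named peak and a genotype, 1 of the 4 libraries stood far from the other 3, by the gap to its neighbour over the range of the 4, about the 1 in 20 that chance gives. In Idh2 R172K the libraries that stood apart, all high, read 112 CPM at the Ccna2 promoter-class peak, 60.4 at Cdc20, 86.6 at Cdc25a and 3.14 at the peak near Gmnn. In Idh2 R140Q the libraries concerned read 6.72 CPM at the Bub1b peak, 2.62 at the Cdc25a peak chr9:109902532-109903215, 0.353 at the E2f8 peak chr7:48898540-48898901 and 28.3 at Rbl1. In Idh1 R132H the values were 42 CPM at the Ccnd3 promoter-class peak, where the other 3 libraries were all at 42.2, 7.27 at the E2f3 intronic peak chr13:29963928-29964685 and 3.31 at the Mki67 peak chr7:135889098-135889793. In Tet2 knockout the values were 3.55 CPM at the Cdc25a peak chr9:109907975-109908692, 5.84 at the same E2f3 peak and 56.6 at Mcm6, and in WT 43.3 CPM at the Cdk6 peak chr5:3198135-3199167.

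Effects of Idh2 R172K and Tet2 knockout differed in edgeR's direct test of the 2 mutants at the lowered peaks near Cdk6 (-2.39), Cdt1 (-0.70) and E2f8 (-0.51). Of the member peaks called in Idh2 R172K against WT, 106 (71.1%) also differed from Tet2 knockout and 112 (75.2%) from Idh2 R140Q, against 73% and 80.1% of all peaks called in Idh2 R172K.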

How the results depend on the processing

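Counts of called member peaks stayed within 1.5 times the reported value under most settings. Within the libraries high at Xist 47 peaks rose in Idh2 R172K against WT, 4 were called in Tet2 knockout and 86 between Idh2 R172K and Idh2 R140Q (where over all peaks 11.8% were higher and 15.7% lower). Leaving out 1 library gave 5 to 10 calls in Tet2 knockout, where 0.349% to 0.871% of all peaks rose and 1.32% to 2.6% fell. Raised promoter-class peaks in Idh2 R172K numbered 12 under library size scaling, 6 under cyclic loess and 12 to 19 with 1 library left out, the lowest without Idh2 R172K replicate 4. Under cyclic loess the promoter-class peaks of Cdc25a (-0.02), Cdk6 (-0.05), E2f8 (-0.06), Mcm7 (-0.00) and Pcna (-0.10, adjusted p 0.0392 in edgeR) changed sign. The list holds only named peaks called under TMM or cyclic loess, and sign changes at other peaks are not given. The cause of these shifts was not tested. With a replicate block there were 81 raised and 78 lowered member peaks in Idh2 R172K, and 3 and 10 in Tet2 knockout. Over all peaks the block gave 26.3% raised and 28.9% lowered in Idh2 R172K, and 1.53% and 3.83% in Tet2 knockout. There were also 84 and 64 member peaks between Idh2 R172K and Tet2 knockout, and 81 and 68 between Idh2 R172K and Idh2 R140Q. The shares of all peaks were 21.8% and 25.5% against Tet2 knockout, and 23.1% and 26.8% against Idh2 R140Q. For Idh1 R132H and Idh2 R140Q against WT 0 member peaks were called with the block. For WT against Idh2 R172K and Tet2 knockout, libraries with the same number correlated at -0.065 to 0.175 and 0.023 to 0.106. WT replicates 1, 2 and 4 correlated best with the same number of Idh2 R172K (0.133, 0.121 and 0.175). WT replicate 3 did so with replicate 1 of that mutant (0.107). Against Tet2 knockout only WT replicate 2 correlated best with its own number (0.085). Whether these numbers pair the libraries was not tested. Of 62 named peaks in Idh2 R172K against WT, 62 kept their direction and call with DESeq2, 60 with the block and 45 under cyclic loess. The 4 libraries per genotype limit what small changes can be seen.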
